A study of Rangifer tarandus with 4 samples.

Results

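The HOX genes were read from the gene annotation deposited with a single-cell study of reindeer blood. Members were taken by a name rule: a protein-coding gene whose symbol is HOX followed by A, B, C or D and then digits only. The rule found 39 genes among 21880 genes in all, 21861 of them protein-coding and 16808 of them protein-coding with a symbol. The gene models are those of cattle, Bos taurus, and every position refers to the build ARS-UCD1.2 with the first base numbered 1. In the study itself, mononuclear blood cells were taken from reindeer (Rangifer tarandus) that had been wounded 3 days before. The blood came from the saphenous vein, named back in the titles (2 libraries), or from the distal antler velvet (2 libraries), and about 12000 cells were loaded per library for 3′ single-cell RNA sequencing. The labels give no age, sex, genotype or number of animals. Cell counts were not analysed here, so no HOX gene has an expression level below and no tissue comparison is made. All values describe gene models, which carry no replicate error, and no test was run.

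HOX genes encode transcription factors that bind DNA through a homeodomain and give cells of the embryo their position along the body axis. They lie in clusters in which the order of the genes follows the order of the body regions they pattern, from group 1 in the hindbrain to group 13 at the tail end and in the digits. Genes of the same number in different clusters are called paralogues, because the clusters arose by duplication of an ancestral cluster. In adults, HOX expression persists in fibroblasts of the trunk and limb skin according to their place of origin. Several members, among them HOXA9 and HOXB4, act in blood stem and progenitor cells.

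All 4 clusters were found, each on a chromosome of its own. Cluster A held 11 genes, all transcribed from the plus strand of chromosome 4, beginning at 68842500. Cluster B held 10 genes, also of the plus strand, on chromosome 19 between 37792302 and 37959268. Cluster C held 9 genes of the minus strand of chromosome 5, between 25977799 and 26093573. Cluster D held 9 genes, also of the minus strand, on chromosome 2 between 20724272 and 20820662. In each of them transcription ran from the group 13 gene towards the genes of low number, and cluster C had no gene of groups 1 to 3.

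Of the 52 places that 13 groups in 4 clusters could fill, 39 were filled and 13 symbols were absent. Groups 4, 9 and 13 were present in all 4 clusters, 7 groups in 3 clusters, and groups 2, 7 and 12 in 2 clusters. Cluster A lacked groups 8 and 12, and cluster B lacked groups 10, 11 and 12. Cluster C lacked groups 1, 2, 3 and 7. Cluster D lacked groups 2, 5, 6 and 7. Group 12, whose members are expressed at the posterior end, was annotated only as HOXC12 and HOXD12, and group 2, which patterns the hindbrain and the second pharyngeal arch, only as HOXA2 and HOXB2. No other gene symbol in the annotation began with HOX, in any spelling.

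**Figure D1:**
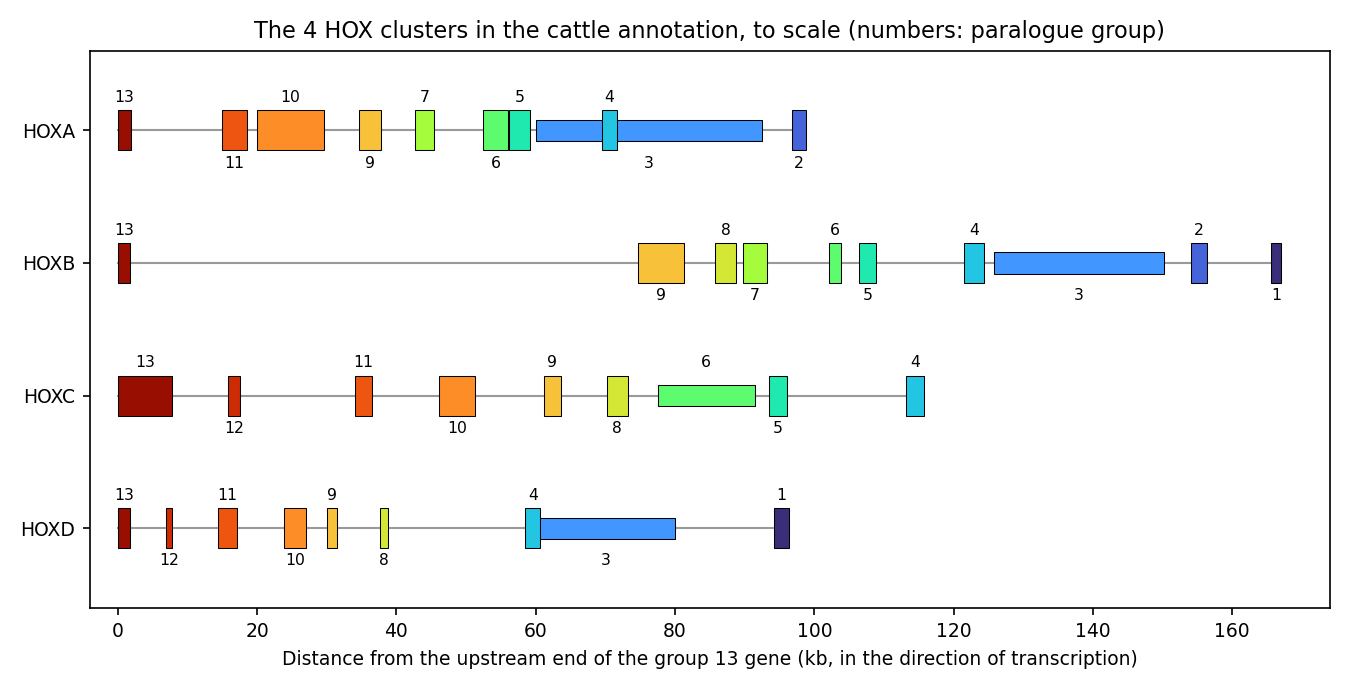
Gene models of the 4 clusters drawn to scale; the horizontal axis is the distance in kb from the upstream end of the group 13 gene, in the direction of transcription, and boxes are genes labelled with their paralogue group (models over 10 kb are drawn thinner). Numbers fall from 13 on the left in every cluster, HOXB13 stands 72.9 kb from HOXB9, and HOXA4 lies within the HOXA3 model.

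The members stood in the order of their numbers with 1 exception. Of 35 pairs of neighbouring members, 34 followed the paralogue order by the start of the gene line, and the exception was HOXA3 and HOXA4. The HOXA3 model, whose product is needed for the thymus and parathyroid, began upstream of HOXA4 and ran past it. By the first coding base, an ordering chosen after the models were seen, all 35 pairs were in order. All 35 pairs also lay on a common strand, beside 51.0% of 21733 pairs of neighbouring protein-coding genes in the whole annotation.

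The length of these runs of genes on a common strand was compared with all runs in the annotation. Cluster A sat in a run of 12 genes, its 11 members and an unnamed gene within HOXA10. Cluster B sat in a run of 12 genes that began with TTLL6 and ended with SKAP1. Of 10786 such runs in the annotation, 37 had at least 12 genes, or 0.343%. Cluster D was in a run of 11 genes, which also took in MTX2 and HNRNPA3 beyond HOXD1, and 51 runs were at least that long. The run of cluster C was made of its 9 members alone, and 108 runs reached that length.

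Cluster lengths ran from 96.4 kb in D to 167 kb in B, with 106 kb in A and 116 kb in C. The length of B came in large part from the interval between HOXB13, a gene of the prostate, and HOXB9. That interval measured 72905 bases, and cluster B without HOXB13 measured 92327 bases. Gene density was 10.4 genes per 100 kb in A, 9.34 in D, 7.77 in C and 5.99 in B. Gene models, introns included, covered 60.8% of cluster A and 29.7% to 36.2% of the others. Exons of the members took up 20.2% of A, 13.8% of D, 13.6% of C and 11.2% of B, and coding bases 9.61%, 9.10%, 6.50% and 5.07% of the same clusters.

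The gaps between neighbouring members ranged widely. Their median was 6214 bases over the 35 pairs, beside 18534 bases over 11075 pairs of neighbouring protein-coding genes on a common strand (quartiles 6520.5 and 53750.5 bases). Overlapping neighbours entered both sets as negative gaps, among members -22991 bases for HOXA3 and HOXA4 and -625 bases for HOXD4 and HOXD3. The gap from HOXA4 to HOXA2, 25111 bases, was counted in full although the HOXA3 model covers part of it. By cluster the median gap was 4512 bases in B, 4780 bases in A, 6360 bases in D and 8883 bases in C. That order rests on the ends of the gene lines: between coding ends the medians were 6680.5 bases in A, 7134.5 in D, 9540 in B and 9688.5 in C. Only 2 gaps were shorter than 1000 bases without an overlap, both beside HOXA5, a gene of lung development. HOXA6 ended 175 bases before HOXA5 began, and HOXA5 ended 874 bases before HOXA3 began. In cluster C the gaps ran from 1961 bases between HOXC6 and HOXC5 to 17017 bases between HOXC5 and HOXC4. In D the widest gap was 19655 bases, between HOXD8 and HOXD4, where groups 5 to 7 are absent. In A the distance from HOXA3 to HOXA2 was 4335 bases once the nested HOXA4 was set aside.

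**Figure D2:**
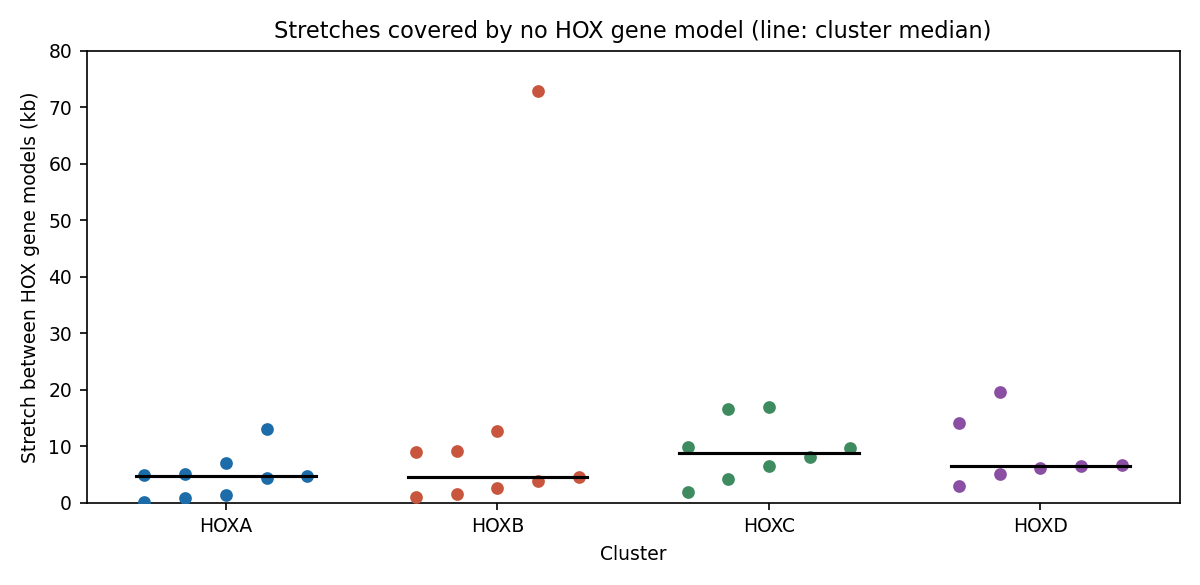
Each point is a stretch in kb between neighbouring HOX gene models that no member covers, by cluster (9 in A, 9 in B, 8 in C, 7 in D), and the black line is the cluster's median. The medians were 4697 bases in A, 4512 in B, 8883 in C and 6506 in D, and the point at 72.9 kb is the stretch from HOXB13 to HOXB9.

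The gene models were small. The median span of a member was 2685 bases, beside 21004.5 bases for all named protein-coding genes, and 25 of 39 spanned under 3000 bases. HOXD12, a limb gene, was the shortest with 961 bases. The 4 members over 10000 bases were the group 3 genes, HOXA3 with 32426, HOXB3 with 24302 and HOXD3 with 19905 bases, and HOXC6 with 13948 bases. Most of their length was intron. The longest intron was 17443 bases in HOXA3, 17360 bases in HOXB3 and 14487 bases in HOXD3, each after a noncoding first exon, and 8852 bases in HOXC6.

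A plain design of 2 exons was shared by most members. In the transcript with the longest coding sequence, 34 of 39 members had exactly 2 exons, beside 6.84% of named protein-coding genes, whose median was 8 exons. HOXA3, HOXB3 and HOXD3 had 4 exons, of which 2 were coding in each. HOXC6 and HOXC10 had 3 exons, all coding. Thus 37 of 39 members had exactly 1 coding intron, beside 7.00% of named genes. Every member had an annotated start codon and stop codon.

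The last coding intron interrupted the reading frame at the same place in the transcript with the longest coding sequence of every member. In 39 of 39 it lay after the first base of a codon, called phase 1, beside 33.2% of 15163 named genes with a start codon and a coding intron. Among the 1133 of these with exactly 1 coding intron, the members included, the share was 43.0%. Over all transcripts, 38 members had that phase in each of them. HOX genes descend from common ancestral genes, so the members are not independent counts.

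In groups 9 to 13 the coding bases after this intron differed by at most 12 among paralogues, and those before it differed by more in each of these groups. In the proteins of groups 9 to 13 the homeodomain lies near the carboxyl end. The last coding exon held 236 coding bases in both HOXC12 and HOXD12, 230 in HOXA11, 230 in HOXC11 and 233 in HOXD11. In group 9 it held 236 bases in HOXA9, 233 in HOXB9, 242 in HOXC9 and 239 in HOXD9, a range of 9 bases. In group 13 it held 242 in HOXA13, 251 in HOXB13, 254 in HOXC13 and 248 in HOXD13. All 16 members of groups 9 to 13 thus fell between 230 and 275 bases in the last coding exon.

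Groups 2 to 8 were less alike in the last coding exon, with ranges from 15 bases in group 8 to 84 bases in group 7, where HOXA7 held 335 bases and HOXB7 held 251. In groups 2 and 7 the bases before the intron differed less than those after it, with 379 in HOXA2, 382 in HOXB2, 379 in HOXA7 and 400 in HOXB7. Groups 4 to 8 ranged from 212 bases in HOXC5 to 353 bases in HOXC4. In group 1 it held 326 bases in HOXB1 and 332 bases in HOXD1. Groups 2 and 3 stood apart with long last exons: 737 coding bases in HOXA2, 680 in HOXB2, 800 in HOXA3, 830 in HOXB3 and 755 in HOXD3. These 5 were the members outside 200 to 360 bases.

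Coding bases before the last coding intron ran from 379 in HOXA2 and HOXA7 to 922 in HOXA13, leaving HOXA10 aside. The median was 442 bases in groups 4 to 8 and, with HOXA10 included, 700 bases in groups 9 to 13. Within group 5 they were 895 bases in HOXA5, 562 in HOXB5 and 454 in HOXC5, although the last coding exons of these genes differed by at most 36 bases. The proteins ranged from 217 residues in HOXB7 to 442 residues in HOXA3, again without HOXA10, and the median of all 39 was 285 residues, beside 448 residues in all named genes. The longest proteins were those of group 3, from 426 to 442 residues.

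**Figure D3:**
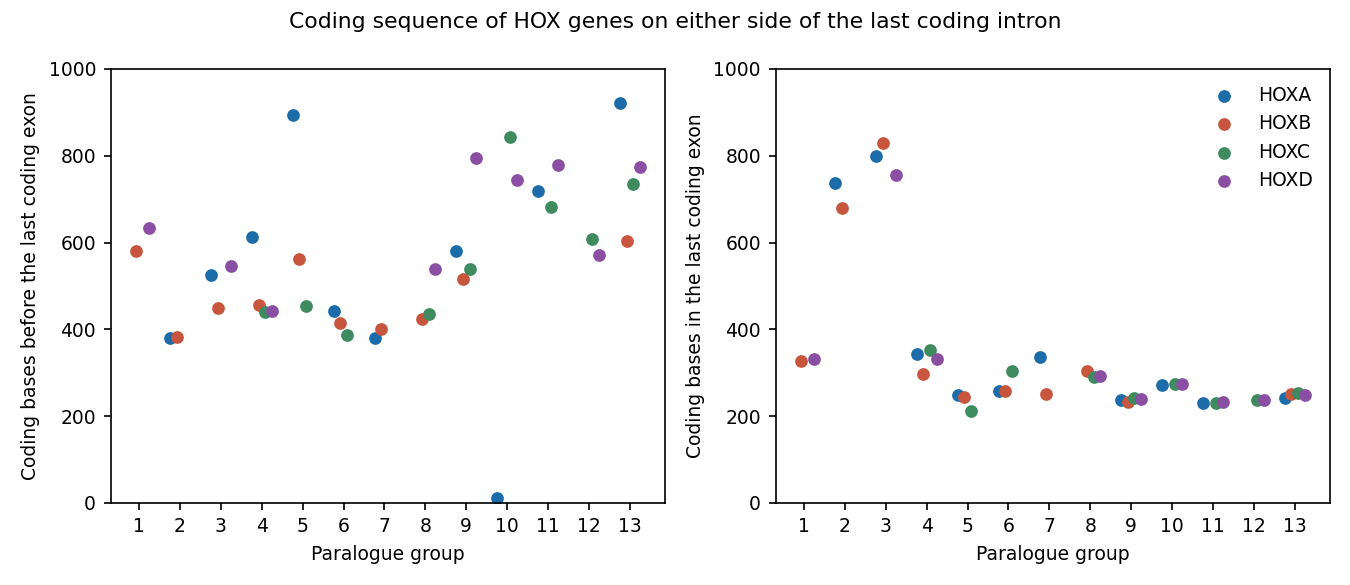
Coding bases of HOX genes before the last coding intron (left) and after it (right), against paralogue group, with a color for each cluster. On the right, groups 9 to 13 lie between 230 and 275 bases and groups 2 and 3 between 680 and 830 bases; on the left, the point at 10 bases is HOXA10.

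The coding model of HOXA10 was much shorter than those of its paralogues. This gene is known for roles in the uterus and in myeloid cells (ENSBTAG00000040082, chromosome 4, 68862439 to 68872086, plus strand). It had a coding sequence of 94 residues, against 373 and 342 residues in the 2 transcripts of HOXC10 and 340 in HOXD10. Its last coding exon held 272 coding bases, close to the 275 of both paralogues. Before the intron HOXA10 held 10 coding bases, where HOXC10 had 844 in its transcript of 373 residues and HOXD10 had 745. The first exon of HOXA10 was otherwise a 5′ UTR of 554 bases, and the intron of 7599 bases was the longest last coding intron of any member.

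Inside that intron, on the same strand, lay an unnamed protein-coding gene (ENSBTAG00000048562, chromosome 4, 68868473 to 68869395). It had 2 exons, a coding sequence of 591 bases or 197 residues with a start and a stop codon, and no UTR. It began 5470 bases after the first exon of HOXA10 and ended 1206 bases before the second, and it shared no exon base with HOXA10. It was the only annotated gene that was not a member within any of the 4 clusters. Of the 21880 genes in the annotation, 21861 were protein-coding, so this count says little about genes of noncoding RNA. Whether the coding sequence of the unnamed gene belongs to HOXA10 was not tested, because no genome or protein sequence was used.

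Exon bases were shared between members at 1 place, HOXD3 and HOXD4. HOXD4, a gene of the neck and hindbrain (ENSBTAG00000039581, chromosome 2, 20759992 to 20762165, minus strand), and HOXD3 (ENSBTAG00000004835, chromosome 2, 20740712 to 20760616, minus strand) shared 430 bases. These were the whole first exon of HOXD3, which is noncoding, and they lay within the last exon of HOXD4, 625 bases long. Of the 430 bases, 332 were coding in HOXD4 and 95 were 3′ UTR of HOXD4. Of the 3′ UTR of HOXD4, 290 bases long, 195 bases at its end belonged to HOXD4 alone, while the 3′ UTR of HOXD3, 836 bases, lay wholly outside the overlap. So 2 of 39 members, or 5.13%, shared exon bases with another gene on their strand, beside 1.81% of named genes and 1.75% of all protein-coding genes. No member shared coding bases with another gene's coding bases, and counting both strands added no member.

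Overlap of whole gene lines on a common strand concerned 5 members, HOXA3, HOXA4, HOXA10, HOXD3 and HOXD4, beside 3.12% of named genes. HOXA4 (ENSBTAG00000001063, chromosome 4, 68911991 to 68914205) lay in the first intron of HOXA3 (ENSBTAG00000008139, chromosome 4, 68902556 to 68934981). It stood 9366 bases after the first exon of HOXA3 and 5862 bases before the second, and no exon base was shared. HOXA3 had 3 transcripts, which began 68902556, 68915664 and 68927985 on the chromosome, and only the first of them began upstream of HOXA4. All 3 coded for 442 residues, and only the first had a 3′ UTR, of 905 bases.

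**Figure D4:**
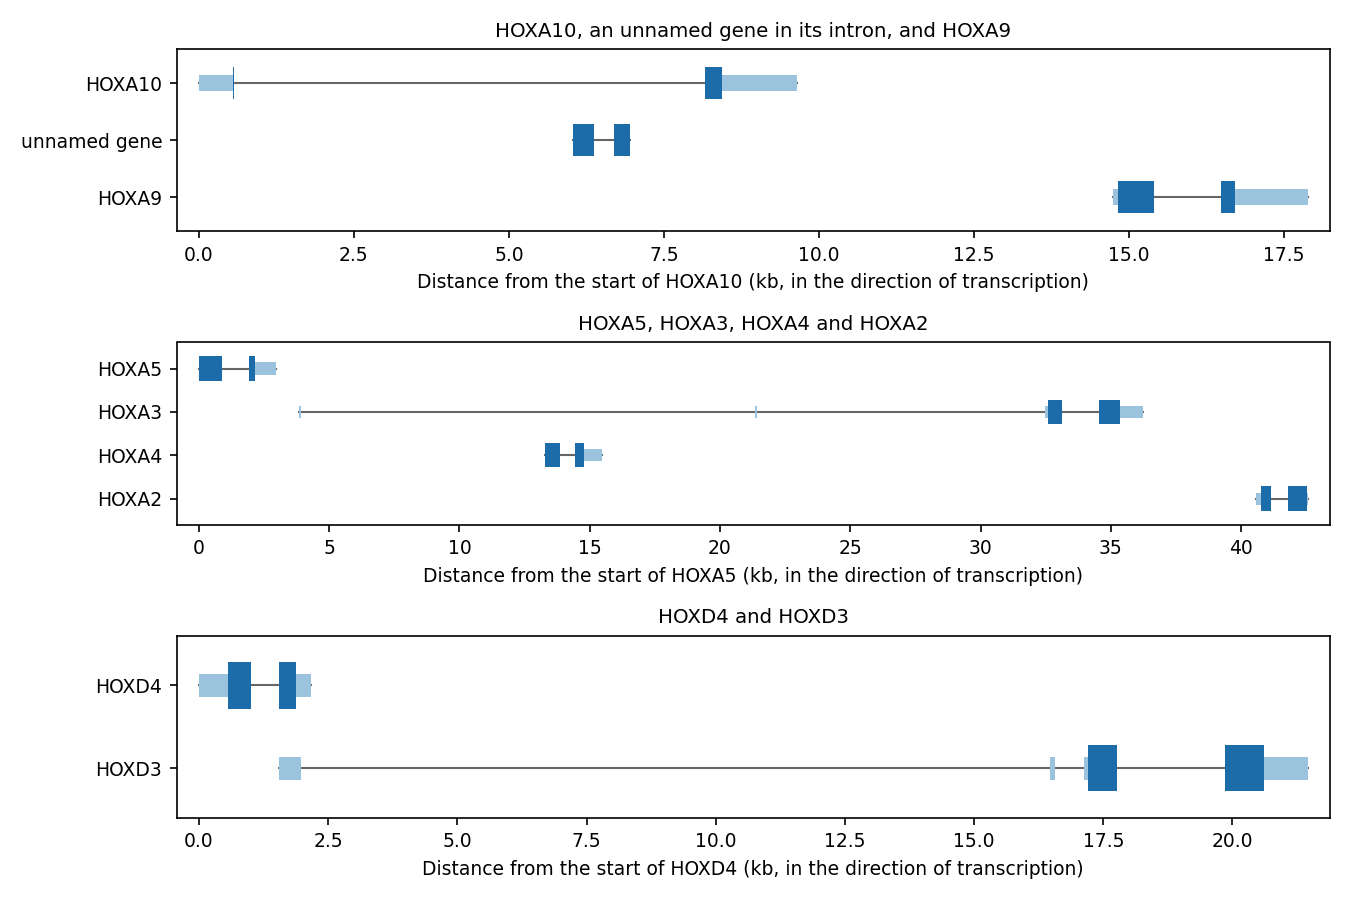
Exon models at the 3 places where a HOX gene line overlaps another gene, with distance in kb from the start of the topmost gene of each panel, in the direction of transcription; dark boxes are coding exons, pale boxes noncoding exons and lines introns, each from the transcript with the longest coding sequence. The unnamed gene lies in the HOXA10 intron, HOXA4 lies in the first intron of HOXA3, and the noncoding first exon of HOXD3 lies on the last exon of HOXD4.

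Untranslated regions bear on how a gene can be counted, because libraries of this kind are read near the 3′ end of transcripts. A 3′ UTR was annotated for 29 of 39 members, or 74.4%, beside 79.8% of named protein-coding genes and 65.5% of all protein-coding genes. The members' share was thus between these backgrounds. Among members that had a 3′ UTR, its median length was 878 bases, beside 649 bases in named genes (quartiles 285 and 1173 bases). A 5′ UTR was annotated for 22 of 39 members, or 56.4%, beside 80.6% of named genes.

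The 10 members without a 3′ UTR also lacked a 5′ UTR, so that their models held coding exons and a stop codon only. They were HOXA13, HOXB1, HOXB6, HOXB13, HOXC9, HOXC12, HOXD8, HOXD9, HOXD12 and HOXD13. A model without any UTR was found for 12.7% of named genes. Both UTRs were annotated for 22 members and a 3′ UTR alone for 7, HOXA4, HOXA5, HOXA6, HOXA11, HOXB2, HOXB5 and HOXD11.

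Counted by paralogue group, missing UTRs were most frequent at the group 13 end. In groups 12 and 13, 5 of 6 members had neither UTR, and the sixth was HOXC13, a gene of hair and nails, with a 3′ UTR of 1326 bases and a 5′ UTR of 39 bases. The digit genes HOXA13 and HOXD13 were among the 5. In groups 9 to 11, 2 of 10 members had neither, in groups 4 to 8, 2 of 15, and in groups 1 to 3, 1 of 8. By cluster, a 3′ UTR was present for 10 of 11 genes in A, 7 of 10 in B, 7 of 9 in C and 5 of 9 in D.

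The longest 3′ UTR, 3159 bases, belonged to HOXB9, a gene of the thoracic region, and was about as long as the whole HOXA9 gene line of 3141 bases. HOXA6 followed with 1524 bases and HOXB3 with 1498 bases, and 9 members had more than 1000 bases. The shortest was that of HOXA2, with 25 bases. HOXA7 had 107 bases, HOXC11 182 bases and HOXD4 290 bases, and all other members with a 3′ UTR had at least 441 bases.

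Members with known roles in blood, named after their values were seen, differed in this respect. HOXA9, which is required for normal blood progenitors and is raised in many leukaemias, had a 3′ UTR of 1161 bases (ENSBTAG00000053595, chromosome 4, 68877182 to 68880322). HOXB4, whose forced expression expands blood stem cells, had 1192 bases (ENSBTAG00000039599, chromosome 19, 37913845 to 37916664). HOXA10, also active in myeloid cells, had 1210 bases, whereas HOXB6, known from red cell precursors, had none (ENSBTAG00000050006, chromosome 19, 37894377 to 37896079).

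Among 5′ UTRs, taken as the longest over transcripts, HOXC6 had 973 bases, HOXA7 had 946 and HOXC4 had 760. The 973 bases of HOXC6 belonged to its transcript of 153 residues, and its transcript of 231 residues had 283. The shortest were those of HOXC13 and HOXD10, with 39 bases each.

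**Figure D5:**
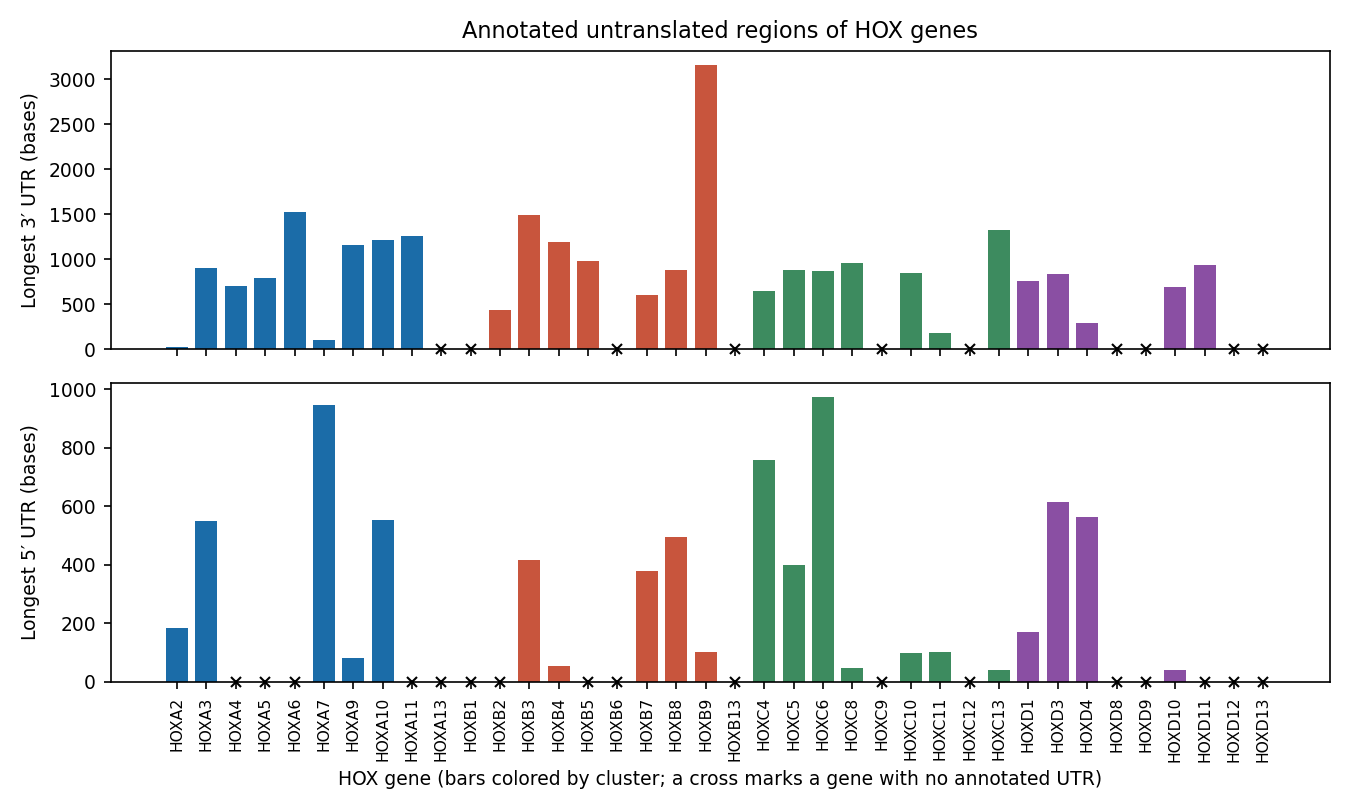
Longest annotated 3′ UTR (top) and 5′ UTR (bottom) of HOX genes in bases, with bars colored by cluster and genes ordered by cluster and paralogue group; a cross marks a gene with none. HOXB9 stands highest at the top with 3159 bases, and the 10 genes with a cross at the top also have one below.

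Alternative transcripts were few. A single transcript was annotated for 34 of 39 members, or 87.2%, beside 53.9% of named genes, and the 39 genes had 45 transcripts in all. HOXC6 had 2 first exons, with 231 residues from the nearer and 153 from the farther, which begins the gene line. HOXC10 had a model of 373 residues with a middle coding exon and a model of 342 residues without it, and the latter is close to the 340 residues of HOXD10. The 2 transcripts of HOXA7 differed only before the start codon, with 5′ UTRs of 946 and 501 bases, and both coded for 238 residues.

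Genes that work with or resemble the members were read in the same way. PBX, MEIS and PKNOX proteins bind DNA together with HOX proteins. All 9 genes of that list were matched, and a 3′ UTR was annotated for 7 (median 974 bases). That was 77.8%, beside 79.8% of named protein-coding genes. MEIS1, which works with HOXA9 in blood, had 1252 bases, the longest was MEIS2 with 1481, the shortest PKNOX1 with 469, and PBX2 and PKNOX2 had none. Of 13 related homeobox genes outside the clusters, 6 had a 3′ UTR, or 46.2%, a share below the 79.8% of named genes. The lengths ran from 34 bases in PDX1 to 1987 bases in MEOX1. EVX1, EVX2, GBX1, GBX2, MNX1, GSX1 and CDX4 had none. GBX1 shared 551 exon bases with ASB10 on its strand.

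Among regulators of HOX expression the share with an annotated 3′ UTR was near the 79.8% of all named genes. Of 15 chromatin regulators, among them the Polycomb proteins that silence HOX genes and the KMT2A complex that keeps them active, a 3′ UTR was annotated for 13, between 63 bases in KAT6A and 2614 in EZH1 (median 1000 bases). KMT2A and DOT1L had none. Of 10 genes of retinoic acid signalling, which switches on anterior HOX genes, a 3′ UTR was annotated for 8, between 195 bases in CYP26A1 and 3280 in RXRA (median 1220.5 bases). RARB and CYP26C1 had none. All 47 symbols of these 4 lists were matched, and GBX1 was the only gene in them with shared exon bases.

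The first protein-coding genes outside the clusters differed from end to end. Beside HOXD13, EVX2 lay 8685 bases away on the opposite strand, and beside HOXA13, EVX1 lay 41481 bases away, also on the opposite strand. Beyond HOXB13 the first gene was TTLL6 at 26523 bases, and beyond HOXC13 the unnamed gene ENSBTAG00000052958 at 29414 bases. At the other end, MTX2 lay 80124 bases from HOXD1, SKAP1 lay 100984 bases from HOXB1, and SMUG1 lay 115345 bases from HOXC4. With its EVX gene included, cluster A measured 150620 bases and cluster D 108818 bases.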

How the data were processed

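The authors deposited a gene annotation of 1020224 lines, which per the file headers is on the build ARS-UCD1.2. Each line gives the first and last base of a feature and belongs to no sample. The submitters' processing notes list STAR, Seurat and Cell Ranger 3, with no role for any. How reindeer reads were counted on cattle genes is not stated in the sources used. Antler was not compared with back, as had been planned, because cell counts were not used here. Depth per library is therefore not given.

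For each gene, the longest 5′ and 3′ UTR over its transcripts (segments summed, at least 1 base), and the exon bases shared with another gene on the same strand were computed. Exons, coding bases, residues and intron phase were read from the transcript with the longest coding sequence, stop codon left out. Members are described beside all protein-coding genes with a symbol, members included, with no test. The reader was checked on a made-up annotation with known answers. All members are in the counts, but 1 of them is not reported here by itself. Other genes named were those inside the clusters, the first gene outside each end, members of 4 lists, genes that share bases with one of these, and, in the closing section, families among the 8 nearest genes on each side, picked after these were seen. The members and lists were chosen with earlier results of these data known. No sequence is printed because no sequence file was used. Python 3.11.15 and matplotlib 3.10.9 were used.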

Additional observations from a re-analysis of the deposited data

How the results depend on the processing

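Of 40 alternatives to 19 results, 36 left the value within 1.5 times the reported one; members found, UTR counts and exon counts were among these. The median gap in cluster A was 3040 bases over neighbours whose numbers follow each other. The median gap in cluster B was 9540 bases between coding ends. Cluster B measured 92327 bases without HOXB13, and 0 members shared coding bases only. The settings without HOXB13, by first coding base, by every transcript and by uncovered stretches were chosen after seeing the data. The planned comparison of homeodomain identity was not run because no protein sequence was used. No paired analysis was possible because no values per sample were used. A missing UTR or a missing symbol describes this annotation; what the genes carry in reindeer was not tested.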

Other observations

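Beyond the clusters, genes of the same families stood at the same ends. Among the 8 nearest protein-coding genes on each side of each cluster, 64 in all, 26 belonged to 10 families with members beside more than 1 cluster. These families were picked after the neighbours were seen, so their number supports nothing. At the end of groups 1 to 4, a gene of the NFE2 family of transcription factors lay beside every cluster. NFE2, known from platelets and red cell precursors, lay 200 kb from HOXC4, NFE2L1 lay 461 kb from HOXB1, NFE2L2 lay 1075 kb from HOXD1, and NFE2L3 lay on the same side of cluster A. At that end too were the RNA-binding protein genes HNRNPA1 (192 kb from HOXC4) and HNRNPA3 (1061 kb from HOXD1), and HNRNPA2B1 beside cluster A. The heterochromatin protein genes CBX5 and CBX1 lay 165 kb from HOXC4 and 436 kb from HOXB1, with CBX3 beside cluster A.

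The adaptor genes SKAP1 and SKAP2, the sorting nexin genes SNX11 and SNX10 and the coatomer genes COPZ1 and COPZ2 also lay at the end of groups 1 to 4, each family beside 2 clusters. At the group 13 end stood the genes of the ATP synthase subunit c, ATP5MC1 (171 kb from HOXB13), ATP5MC2 (276 kb from HOXC13) and ATP5MC3 (867 kb from HOXD13). CALCOCO2 lay 89.8 kb from HOXB13 and CALCOCO1 lay 235 kb from HOXC13. The related transcription factor genes ATF7, ATF2 and CREB5 lay 325 kb from HOXC13, 916 kb from HOXD13 and 1090 kb from HOXA13.

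Among these neighbours, 3′ UTRs ranged from none in HNRNPA3, ATP5MC2, ATF7, EVX1 and EVX2 to 6345 bases in CREB5. SKAP1, an adaptor of T cell receptor signalling beside HOXB1, had a 3′ UTR of 7 bases, and NFE2 had 271 bases.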
